A study of Mus musculus with 9 samples.

Results

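Extracellular vesicles (EVs) are membrane-bound particles that cells shed, and the RNA enclosed in them is called their cargo. The results below describe the cargo of EVs from control mouse embryonic fibroblasts (MEFs), as measured on the 4 arrays labelled as control MEF-derived EV out of the 9 arrays of the series. The other 5 arrays, labelled PBS treated, were not compared here. The labels give the control EVs no genotype, age or agent. Per the study's methods, the MEFs were commercial cells grown with fetal bovine serum, and EVs were collected in serum-free medium, cleared of debris by centrifugation and enriched by tangential flow filtration. These steps are described for electroporated cells and not separately for the controls. Nothing in the labels ties the 4 samples to separate cultures, so each SD and p-value given here covers the variation among these arrays alone, and that variation can be technical. Fewer vesicles and less RNA per vesicle cannot be told apart in such material.

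MEFs are connective tissue cells that spread in culture, divide and secrete extracellular matrix. EVs form either at the plasma membrane or inside multivesicular bodies, where the ESCRT machinery buds small vesicles inward and tetraspanins such as CD63 and CD81 gather. Cytoplasmic RNA enters them, and ribosomal RNA, mRNA of translation proteins, small structural RNAs and fragments of longer RNAs are known constituents of vesicle preparations. Each probe of the array is a 60-base DNA in the sense of its transcript, and the labelled cRNA hybridised to it was antisense per the labels. A bright probe therefore reports RNA of the printed letters.

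Values are scaled signals on the log2 scale, that is, log2 of the background-corrected intensity minus the 75th percentile of the same array over the 9444 probes that were well above background on all 4 control arrays. A value of 0 is thus the 75th percentile of detected probes, and 1 unit is a 2-fold step. A gene was kept if at least 1 probe passed the scanner's well-above-background mark on all 4 arrays, and it took the kept probe with the highest mean. Of 36307 gene names on the array, 8053 were kept (22.2%), of which 5542 were protein-coding genes, 803 were intervals named as long intergenic noncoding RNA (lincRNA), 681 were pseudogenes, 81 were other long noncoding RNAs and 16 were small structural or ribosomal RNAs. The brightness of a probe depends on its sequence as well as on the amount of RNA, so the ranks below order signals and not molecules.

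The 4 arrays lay on 2 slides, replicates 1 and 2 on slide 1 and replicates 3 and 4 on slide 2. Replicates 1 and 2 had 15554 and 15252 probes well above background, and replicates 3 and 4 had 12673 and 12584. Over the kept genes, Pearson's r across genes was 0.993 between replicates 1 and 2 and 0.982 between replicates 3 and 4, but 0.811 to 0.845 between arrays of different slides. Genes are not independent replicates, and these r describe the arrays. An SD over the 4 arrays therefore includes the difference between slides, which is described at the end.

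The brightest genes were led by RNA of the ribosome and of mitochondria. The probe of Rn18s, the 18S ribosomal RNA, lies at chr17:39985058-39985117 (mm9, plus strand), and that of COX1, the mitochondrially encoded catalytic subunit of cytochrome c oxidase, at chrM:6650-6709. No position is given in the files for that of Rn28s1, the 28S ribosomal RNA. These probes are shown because they gave the 3 highest signals of the cargo.
Rn18s: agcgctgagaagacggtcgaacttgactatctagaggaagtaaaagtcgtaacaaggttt
Rn28s1: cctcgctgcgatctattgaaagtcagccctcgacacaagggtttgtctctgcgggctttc
COX1: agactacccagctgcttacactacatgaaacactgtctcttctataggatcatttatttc

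A second set of bright probes held runs of letters that recur in probes of other genes. The stretches shown are 30 bases of the probe of the named gene, with an 18-base run that other probes of the array also carry in capitals. They are shown because these genes are among the 30 brightest with an ordinary symbol and their probes share runs with probes of other genes. The runs of F10 and Slc10a1 are letters of the B1 short interspersed element, and those of Exosc2 and Pbld1 are letters of the B2 element, a pair of repeat families spread through the mouse genome and transcribed within many RNAs. Those of Dcaf12l2 and Cplx2 are simple repeats.
Exosc2: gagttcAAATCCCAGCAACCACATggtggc
F10: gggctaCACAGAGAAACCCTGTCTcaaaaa
Dcaf12l2: gAGAGAGAGAGAGAGAGAGagagatttcta
Cplx2: agGAGGAGGAGGAGGAGGAGgaggaggagg
Pbld1: ggagtgTCTGAAGACAGCTACAGTgtaatt
Slc10a1: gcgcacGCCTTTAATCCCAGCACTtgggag

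Rn18s gave scaled signals of 7.73, 7.02, 8.39 and 8.17 on replicates 1 to 4, a mean of 7.83 ± 0.61 (SD, n = 4), the highest of the 8053 genes. Rn28s1 gave 7.10, 6.86, 7.30 and 7.39, a mean of 7.16 ± 0.23. Both RNAs, which form the body of the ribosomal subunits, were lowest on replicate 2. Both slide 2 arrays were above both slide 1 arrays for each, and the slide difference passed the test for Rn18s (0.91 ± 0.27 SE, limma adjusted p = 0.036) and not for Rn28s1 (0.36 ± 0.13 SE, adjusted p = 0.056).

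Around the Rn18s probe, 23 probes lie within 10000 bases on chromosome 17 (39980297 to 39985688, mm9), where the assembly holds a copy of the ribosomal DNA unit. All 13 probes of the plus strand were kept, with means from -3.48 to 7.83 and a median of -0.12, whereas 7 of the 10 probes of the minus strand were kept, and all 10 had means from -4.52 to -2.35 with a median of -3.56. The brightest plus-strand probe after Rn18s had a mean of 1.95, so most probes of this stretch were far dimmer than that of Rn18s.

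The mitochondrially encoded mRNAs, which specify subunits of the respiratory chain and of ATP synthase, were kept for 12 of 12 genes on the array, at a median rank of 207.5 of 8053. COX1 gave 7.25, 6.97, 7.21 and 7.18, a mean of 7.15 ± 0.13, and COX2, another subunit of cytochrome c oxidase, gave 6.82, 6.50, 7.02 and 6.81, a mean of 6.79 ± 0.22. The slides overlapped for both. COX3 followed at 5.81 ± 0.21 and CYTB, the cytochrome b of complex III, at 5.76 ± 0.42, while ND1, a complex I subunit, reached 1.36 ± 0.54. ND6, the only one of the 12 encoded on the light strand of the mitochondrial genome, was lowest at 0.00 ± 0.47. The array annotation places the COX2 probe (24621739 to 24621798) and the COX3 probe (24620286 to 24620345) on chromosome 1, so a nuclear copy of these sequences cannot be told apart from the mitochondrial RNA. Together the 12 genes made up 2.36 ± 0.14% of the summed signal of kept genes.

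mRNAs of ribosomal proteins carried the highest share of summed signal of the 31 lists. Of the large subunit 46 of 47 genes were kept and of the small subunit 33 of 33, at median ranks of 186.5 and 207, and 14 and 11 of them lay among the 100 brightest genes. Rpl37, a large-subunit protein, gave 6.73, 6.55, 6.58 and 6.72, a mean of 6.64 ± 0.09. Rps20, of the small subunit, gave 6.39, 6.18, 6.19 and 6.22, a mean of 6.25 ± 0.10. In both, the range over 4 arrays was smaller than the median SD of all kept genes, 0.37. Rplp0, of the ribosomal stalk, followed at 6.23 ± 0.14, Rpl9 at 6.17 ± 0.06, Rpl11 at 6.10 ± 0.07 and Rpl8 at 5.89 ± 0.06. These values are of the brightest probe of each gene, and other kept probes were dimmer. Those of Rplp0 gave 3.54 ± 0.47 and 2.63 ± 2.13, and those of Rpl11 gave 3.49 ± 0.38 and 1.60 ± 0.44. The other probe of Rpl9 gave 5.87 ± 0.09 and that of Rpl8 gave 4.58 ± 0.20. The classes carried 7.41 ± 0.55% and 4.68 ± 0.48% of the summed signal. Rps21 and Rps3 were dim members of the small subunit at -2.06 ± 0.10 and -0.87 ± 0.06, and Rpl21 was well above background on 2 arrays only. Probes of these genes can also bind RNA of processed pseudogenes of near-identical sequence, and 681 pseudogene names were kept with a median mean of 0.48, against -1.76 for protein-coding genes.

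Ftl1, the light chain of the iron store ferritin, was the brightest named mRNA outside these groups that had no repeated run. It gave 6.57, 6.52, 6.61 and 6.51, a mean of 6.55 ± 0.05, and its second probe gave 4.12 ± 0.15, above background on all 4 arrays. The array annotation places the first probe on chromosome 7 and the second on chromosome 13 (74544259 to 74544317). RNA of another locus therefore cannot be told apart on the second probe. Fth1, the ferritin heavy chain, reached 4.39 ± 0.15. Zfp628, a zinc finger gene, was the other such gene among the 30 brightest named genes. Its probe, 86.7% G and C, gave 6.06, 5.57, 6.83 and 6.59, a mean of 6.26 ± 0.56, while its second probe gave -3.43 ± 0.29 and was above background on 3 arrays.

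**Figure D1:**
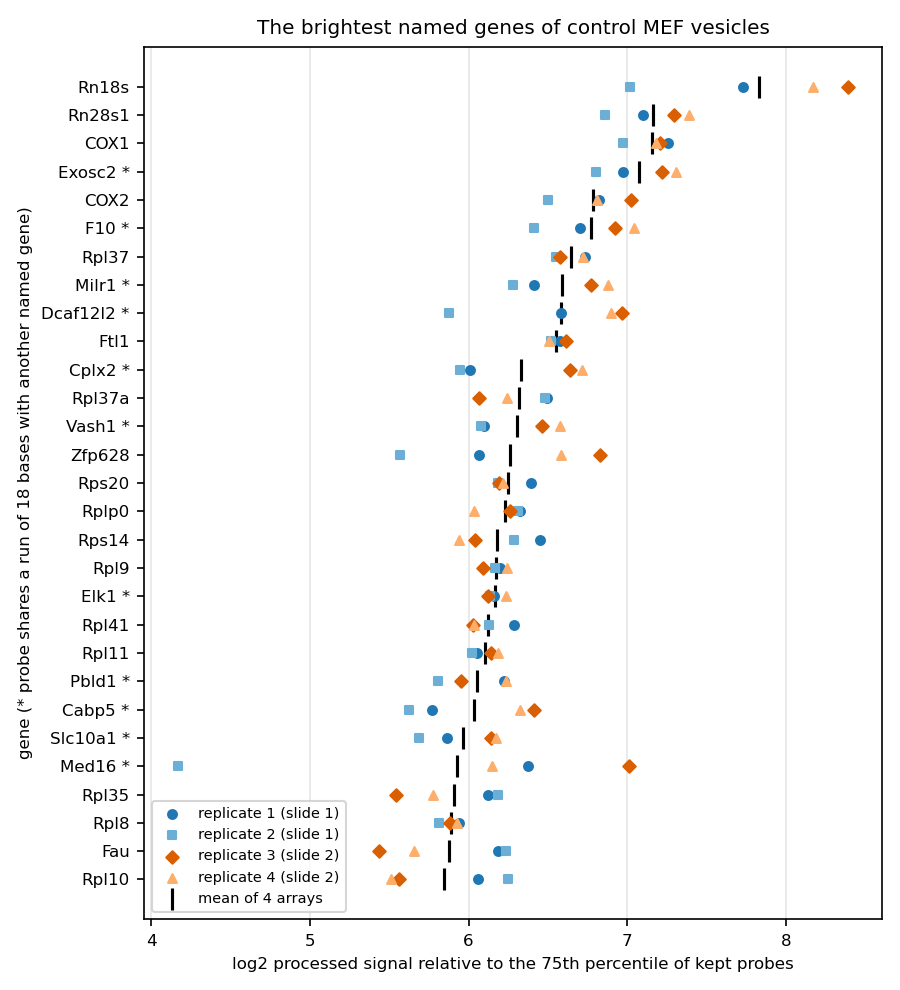
Scaled log2 signal (x axis) of 29 of the 30 brightest named genes (y axis) on each of the 4 control arrays, with colour and marker for the array and a bar for the mean. An asterisk marks the 11 genes shown whose probe shares an 18-base run with a probe of another named gene, and Med16 on replicate 2 lies at 4.17, below the other 3 arrays.

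Of the 30 brightest named genes, 12 were ribosomal protein genes, 2 were rRNAs, 2 were mitochondrial, and 12 were represented by a probe that shares an 18-base run, on either strand, with a probe of at least 1 other named gene. The last group includes Exosc2, F10, Milr1, Dcaf12l2, Cplx2, Vash1, Elk1, Pbld1, Cabp5, Slc10a1 and Med16. F10 encodes the liver-made coagulation factor X, Slc10a1 the bile acid importer of hepatocytes, Cabp5 a calcium-binding protein of the retina, and Cplx2 a complexin of synapses. For Cplx2, a probe that shares no run gave -0.20 ± 0.35 and was above background on all 4 arrays. The array annotation places the brightest Cplx2 probe on chromosome 2 and its other probes on chromosome 13. Over the brightest 100 named genes, 29.0% had a probe with a run found in probes of at least 2 other named genes, against 3.83% of all 5609 named genes kept.

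F10 gave 6.71, 6.41, 6.93 and 7.04, a mean of 6.77 ± 0.28, on the probe with the B1 run. Its second probe, without the run, gave -6.58 ± 0.80 and was well above background on no array. Slc10a1 likewise gave 5.86, 5.69, 6.14 and 6.17 on the probe shown and -6.99 ± 0.79, on no array above background, on the other. For the 11 of these genes with more than 1 probe, 7 had no other probe above background on any array, among them F10, Dcaf12l2, Elk1, Pbld1, Cabp5 and Slc10a1. The array thus gives no signal for these 7 transcripts outside the repeated run. Exosc2, a subunit of the RNA exosome, gave 6.97, 6.80, 7.22 and 7.31, a mean of 7.08 ± 0.23, and has no second probe. Milr1 shares its run and gave 6.59 ± 0.29. Med16, a Mediator subunit, varied most within the 30, at 6.38, 4.17, 7.01 and 6.15 (SD 1.23), and its other probe gave -1.26 ± 0.81.

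The signal of several runs differed between the orientations. The run of Dcaf12l2 occurs in 8 probes with a median of 5.74, against -2.69 for the 8 probes with its reverse complement. That of Cplx2 occurs in 14 probes with a median of 6.05, and the single probe with the reverse complement gave -3.02. That of Pbld1 occurs in 11 probes, all kept, with means from 1.69 to 6.05 and a median of 4.91, whereas its reverse complement is in 2 probes, of which 1 was kept. The run of F10 was not bright in all its probes, which ran from -3.41 to 6.77 with a median of 0.23, against a median of 1.15 for the 3 probes in reverse. These are descriptions of small sets that overlap in sequence, and no test was made of them.

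The 2 runs carried by most kept probes were simple repeats, GTGTGTGTGTGTGTGTGT in 61 probes and GAAGAAGAAGAAGAAGAA in 45 probes, that is, in 0.110% and 0.0808% of all 55681 noncontrol probes. All were kept. The first had a median of 0.59, and its reverse complement, in 26 probes, had a median of 1.36. The second had a median of 3.67 and a range from -2.81 to 6.26, and no probe holds its reverse complement. Which RNAs the labelled material came from cannot be read from such probes.

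**Figure D2:**
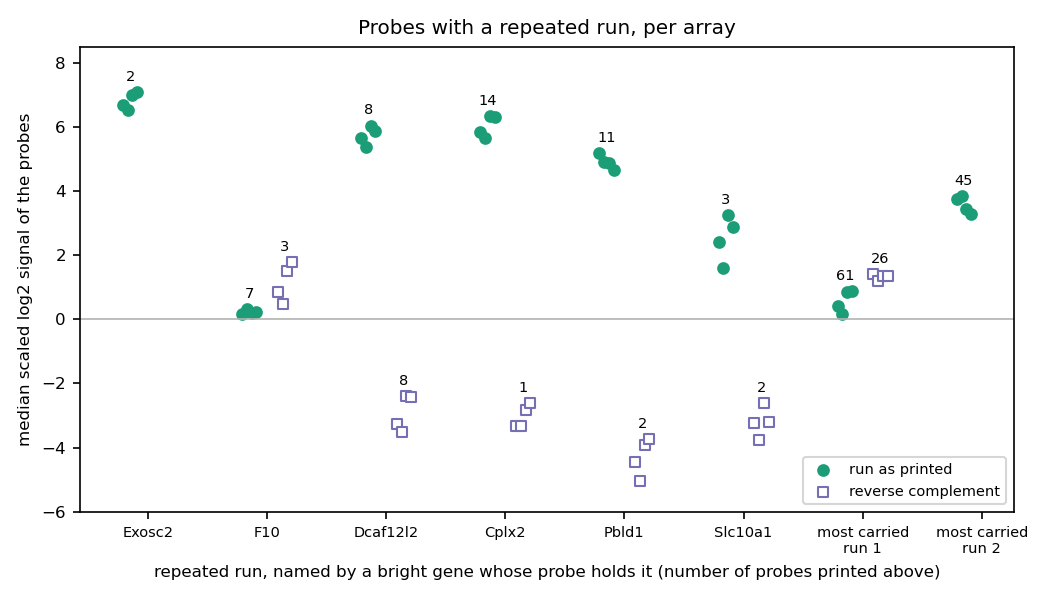
Median scaled log2 signal (y axis) of the probes that hold each repeated run (x axis), with the 4 points of each cluster for replicates 1 to 4 from left to right and the number of probes above. Filled circles are the run as printed and open squares its reverse complement, and the run of Dcaf12l2 lies near 5.74 as printed and near -2.69 in reverse.

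Small structural RNAs were kept for 16 of the 52 names of this kind on the array, rRNAs included. Rn4.5s, a rodent RNA related to the B1 element, gave 5.14, 5.10, 5.48 and 5.63, a mean of 5.34 ± 0.26 at rank 101. Rnu1b6, a gene of the U1 spliceosomal RNA, gave 3.99, 3.73, 5.02 and 5.17, a mean of 4.47 ± 0.72. Both were higher on slide 2. Rnu3b1, a U3 RNA of rRNA processing, gave 2.09 ± 0.07, Rmrp, the RNA of RNase MRP, 1.92 ± 0.17, and Rpph1, the RNA of RNase P, 0.03 ± 0.08, with slides that did not differ by the test. Terc, the telomerase RNA, gave -2.20 and -2.98 on slide 1 and 1.20 and 1.08 on slide 2. A list of 21 noncoding RNAs, which also holds Rmrp, Rpph1 and Terc, had 9 kept members. Neat1, the scaffold RNA of paraspeckles, was kept at -1.63 ± 0.25, and Malat1, an abundant nuclear RNA, was well above background on no array.

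Behind the ribosomal and mitochondrial RNAs came classes of the energy supply and the cytoplasm. Ranks are given as percentiles from the brightest kept gene, so that the middle gene of all 8053 lies at 50%. Nuclear-encoded subunits of oxidative phosphorylation were kept for 65 of 68 genes, at the brightest 14.7% by median. Atp5g2, a subunit c gene of ATP synthase, led them with 4.73, 4.75, 5.90 and 5.86, higher on slide 2 than on slide 1 (mean 5.31 ± 0.66). Glycolytic enzymes were kept for 13 of 19 genes with a median at 14.7%, led by Gapdh at 4.53, 4.36, 4.07 and 3.99, a mean of 4.23 ± 0.25. The 7 probes of Gapdh disagreed in level, with means from -1.15 to 4.23. Tubulins followed (9 of 11 genes, 16.9%), with Tuba1b at 4.13 ± 0.31, and translation factors (35 of 36, 18.6%), with Tpt1, the translationally controlled tumour protein, at 5.66 ± 0.31 and Eef1a1, which brings aminoacyl-tRNA to the ribosome, at 3.90 ± 0.35.

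Of 39 genes of the actin cytoskeleton 31 were kept, with Actg1 at 3.98 ± 0.53 on the brightest of its 5 probes, whose means began at -2.11, and Actb, cytoplasmic beta-actin, at 4.11, 4.13, 3.50 and 3.59, a mean of 3.83 ± 0.33. All 12 annexin and S100 genes were kept, led by S100a6, a calcium-binding protein, at 5.25 ± 0.32 and its partner Anxa2 at 4.21 ± 0.29. Chaperones were kept for 26 of 31 genes, with Ppia, cyclophilin A, at 5.48 ± 0.20. Splicing and RNA-binding proteins were kept for 34 of 40, with the nucleolar protein Ncl at 4.80 ± 0.30, and proteasome subunits for 33 of 34, with Psmb5 at 2.43 ± 0.09. Redox and iron genes were kept for 22 of 28. Replication-dependent histones were kept for 22 of 36 and held the lowest median SD of the lists, 0.16, and H2ac10 led them at 5.26 ± 0.06. Of those 22, 10 were read by probes that share a run with at least 2 other named genes, chiefly each other, and cannot be told apart from their paralogs.

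Genes for the vesicle itself ranged from bright to dim. Of 24 tetraspanin and vesicle marker genes 18 were kept, at a median of 53.8%. Cd63 gave 1.27, 1.39, 1.05 and 1.15, a mean of 1.22 ± 0.15. Cd81 gave 0.09, 0.01, -0.30 and -0.28, a mean of -0.12 ± 0.20, and Cd9 gave -1.45, -1.50, -2.15 and -2.31, a mean of -1.85 ± 0.44. Mfge8, the secreted lactadherin that coats vesicles, was highest at 2.33 ± 0.11, among the brightest 8.21% of kept genes. ESCRT genes were kept for 17 of 29, at a median of 38.4%, with Vps37b at 1.01 ± 0.16, and Tsg101, an ESCRT-I subunit, was above background on 3 arrays. Lysosomal genes were kept for 19 of 24, at a median of 43.5%, led by Lamp1 at 1.90 ± 0.29. These are mRNA signals and say nothing of the proteins on the vesicles.

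Matrix and signalling lists were spread over the ranks. Collagens were kept for 6 of 17 genes, at a median of 68.7%, with Col1a1, the main chain of type I collagen, at 0.59, 0.50, -0.02 and 0.13, a mean of 0.30 ± 0.29, and Col1a2 at -1.79 ± 0.32. Matrix glycoproteins and proteoglycans were kept for 17 of 38, at a median of 47.2%, led by Sparc at 3.34, 3.27, 2.97 and 2.93, a mean of 3.13 ± 0.21, and Fn1, fibronectin, reached 1.89 ± 0.24. Matrix proteases and inhibitors were kept for 9 of 24, at a median of 34.7%, with Timp2 at 2.81 ± 0.18. Secreted growth factors were kept for 14 of 33, with Ptgds at 0.58 ± 0.22, and chemokines and cytokines for 6 of 24, with Mif at 2.48 ± 0.32 and the other 5 at or below -1.23. S and G2/M phase genes were kept for 26 of 34, with Birc5, survivin, at 1.01 ± 0.38.

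**Figure D3:**
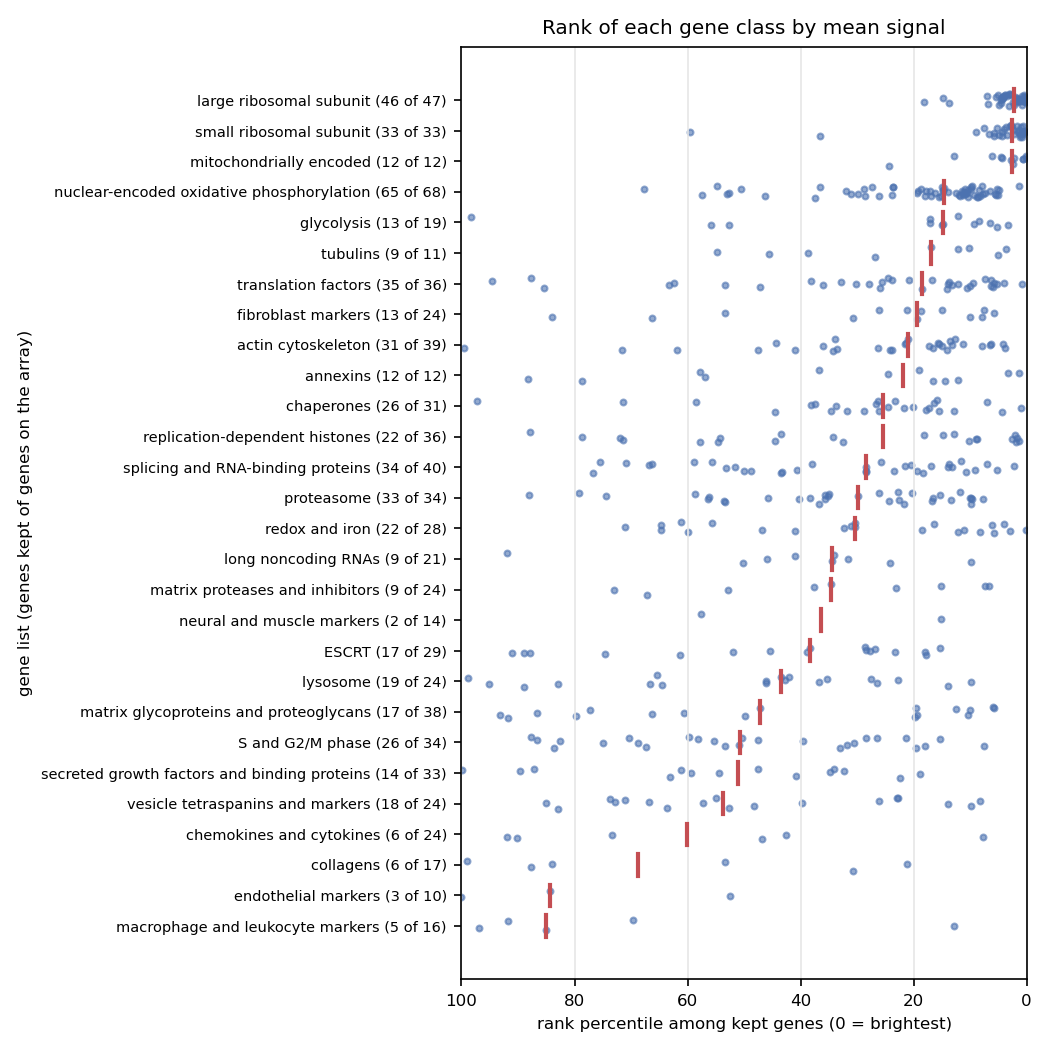
Rank percentile by mean signal (x axis, 0 is the brightest kept gene) of every kept member of each gene list shown (y axis), with a bar at the list's median and the genes kept of those on the array in brackets. Both ribosomal lists and the mitochondrial list have medians between 2.32% and 2.58%, and the collagen median lies at 68.7%.

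Markers of cell types were read to check the labelled source, and their counts stand against 22.2% of all names and 27.5% of protein-coding names kept. Of 24 fibroblast markers 13 were kept, with Sparc, S100a4 (2.52 ± 0.25), Vim (2.40 ± 0.33) and Pdgfra (0.59 ± 0.55) among them, and Thy1, Postn and Lum were above background on no array. None of 11 epithelial and none of 10 erythroid markers was kept, but some were above background on part of the arrays, Krt19 and Krt14 on 2 and Cldn4 on 1 among the epithelial and Hba-a1 on 2 and Hba-a2 on 1 among the erythroid markers. The defining Epcam, Cdh1, Hbb-bt and Alas2 were on no array. Of 16 macrophage and leukocyte markers 5 were kept and 10, with Ptprc, Cd68, Adgre1 and Lyz2 among them, were on no array. The brightest of the 5, Itgam at 1.37 ± 0.11, was read by a probe that shares a run with probes of 73 other named genes, and its 2 other probes, at -6.34 and -6.07, were above background on no array. The other 4 were read by probes with means of -2.48 (Csf1r), -3.09 (Cd3e), -3.39 (Fcer1g) and -3.78 (Cd14). Csf1r, the receptor of macrophage colony-stimulating factor, gave -3.25, -4.13, -1.26 and -1.26, and it, Fcer1g and Cd14 were higher on slide 2 by the limma test. The other probes of Csf1r, at -5.61 and -5.31, were each well above background on 1 array. Of 14 neural and muscle markers 2 were kept, and Snap25 at 1.05 ± 0.22 was likewise read by a probe sharing a run with 66 other named genes. Of 10 endothelial markers 3 were kept, Kdr at -1.74 ± 0.19, Egfl7 at -3.07 ± 0.59 and Pecam1 at -4.67 ± 0.93, and the other 7 were on no array. Pecam1 was higher and Egfl7 lower on slide 2. The part of other cell types in the cargo was not tested.

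**Figure D4:**
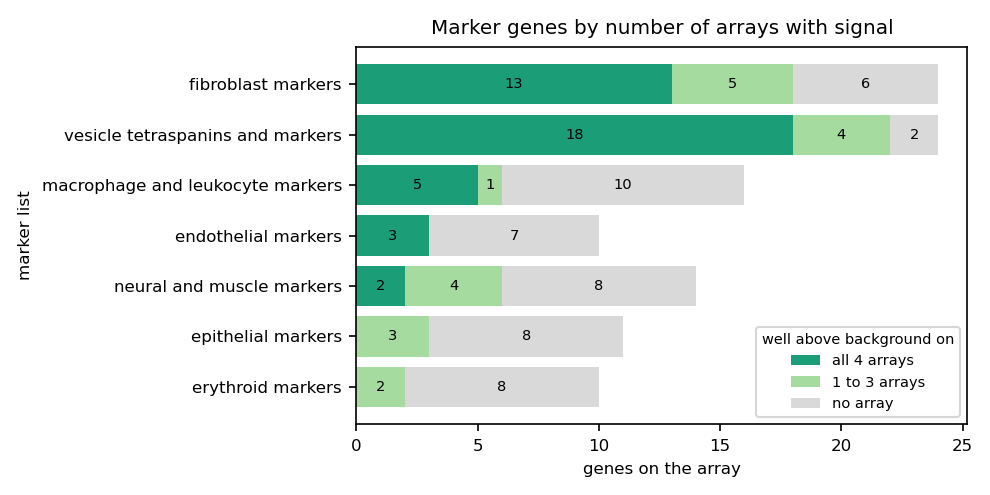
Number of genes of each marker list (y axis) by the number of arrays on which they were well above background (x axis, genes on the array). Fibroblast markers were on all 4 arrays for 13 of 24 genes, and no epithelial or erythroid marker was.

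The signal was concentrated in few genes on each array. The 10 brightest genes held 5.85, 4.90, 7.35 and 7.19% of the summed signal of kept genes, the 100 brightest held 31.4, 29.7, 33.3 and 32.9%, and the 1000 brightest held 81.3 ± 1.26% on average. Slide 2 arrays were above slide 1 arrays for the first 2 shares and below them for the last.

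Most of the replicate spread lay between slides. The median SD over the 4 arrays was 0.37, against 0.12 for the spread within slides, and 1262 of 8053 genes had an SD above 1. The median SD was 0.31 over the 2014 brightest genes and 0.47 over the 2013 dimmest. Slide 2 differed from slide 1 in 5531 of 8053 genes (68.7%, limma, Benjamini-Hochberg adjusted p under 0.05), of which 1855 were higher on slide 2 (23%) and 3676 were lower (45.6%). The slides did not overlap in 7077 genes, or 87.9%. With 2 arrays against 2, an exact permutation test of a single gene cannot go below 0.333, so the calls rest on the spread pooled across genes. The median difference of all genes was -0.34 and moved with the scaling, from -1.21 without scaling to -0.10 with normexp background correction, so the split of calls depends on the scaling: 1281 higher and 5956 lower without scaling, 2305 and 2736 with normexp, 1416 and 5977 with the percentile over all probes, and 1983 and 2547 with the percentile over probes detected on all 9 arrays. Without replicate 2 the calls fell to 3659, of which 1871 were higher and 1788 lower, and without replicate 1 they fell to 3740, of which 1863 were higher and 1877 lower. With detection on at least 1 array, 3826 were higher and 3784 lower, of the 15433 genes then kept. Slide, scan and whatever else differed between these pairs of samples cannot be told apart.

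Among called genes with an ordinary symbol, Slc16a12, a creatine transporter, had the largest difference (5.79 ± 0.11 SE, limma adjusted p = 0.00022). It gave -5.27 and -5.46 on slide 1 and 0.41 and 0.43 on slide 2. Faf1, Olfr268-ps1, Gata6os, Pvt1, Frrs1l, H2af-ps2, Ssc4d, Tas1r3 and Platr26 followed, with differences from 5.46 to 4.75. The slide 1 values of Slc16a12, Faf1 and Frrs1l lay below -4.67, the lowest mean of any kept gene. The size of these differences therefore rests on dim slide 1 signals. The second probe of Faf1 gave -3.19 ± 0.21, and the difference was -0.27 without replicate 3 and -0.40 without replicate 4, where that probe represents the gene. Pvt1, a long noncoding RNA beside Myc, gave -3.07, -2.85, 2.25 and 1.52, while its second probe gave -5.06 ± 0.35. Bgn, the matrix proteoglycan biglycan, gave 1.45, 1.43, 4.75 and 4.51 (difference 3.20 ± 0.12 SE, limma adjusted p = 0.00022), and its slide 2 mean of 4.63 was the highest of the matrix lists. Cdk1, the mitotic kinase, was -3.79 and -4.19 on slide 1 and 0.23 and -0.24 on slide 2, while 19 of the 26 kept genes of the S and G2/M list were lower on slide 2, against 45.6% of all genes. That count was 10 with the percentile over probes detected on all 9 arrays, where 2547 of all 8053 genes were lower. It was 24 without scaling, where 5956 of all 8053 genes were lower.

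Of the genes lower on slide 2, Vmn1r87, a vomeronasal receptor, had the largest difference, with 1.19, 0.52, -1.93 and -1.78 (difference -2.71 ± 0.25 SE, limma adjusted p = 0.0016). Lbx1, Mfsd2b, Nova1, Adnp, Tcf19, Eif4g2, Rpl21-ps15, Cdh18 and Rpl7a-ps14 followed, with differences from -2.33 to -1.69. Counts of members called lower moved with the scaling and stand against 45.6% of all genes lower and 23% higher. The large ribosomal list had 20 of 46 kept members lower, and from 9 (authors' own values) to 46 (no scaling) under the other scalings and corrections. The small ribosomal list had 20 of 33, and from 8 (authors' own values, among others) to 33 (no scaling, among others). None of either list was higher, save 1 small-subunit gene with normexp. Their median differences were -0.29 and -0.35, that is 0.05 and -0.01 relative to all genes, and the relative values ran from -0.33 (normexp) to 0.26 (quantile) for the large and from -0.37 to 0.25 for the small subunit. Of the annexin list 11 of 12 members were lower, and from 9 to 12 under the other settings, with a median of -0.24 relative to all genes. Of the 13 fibroblast markers kept 11 were lower, and from 8 to 11 under the other settings, and 2 were higher, with a median of -0.15 relative to all genes.

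**Figure D5:**
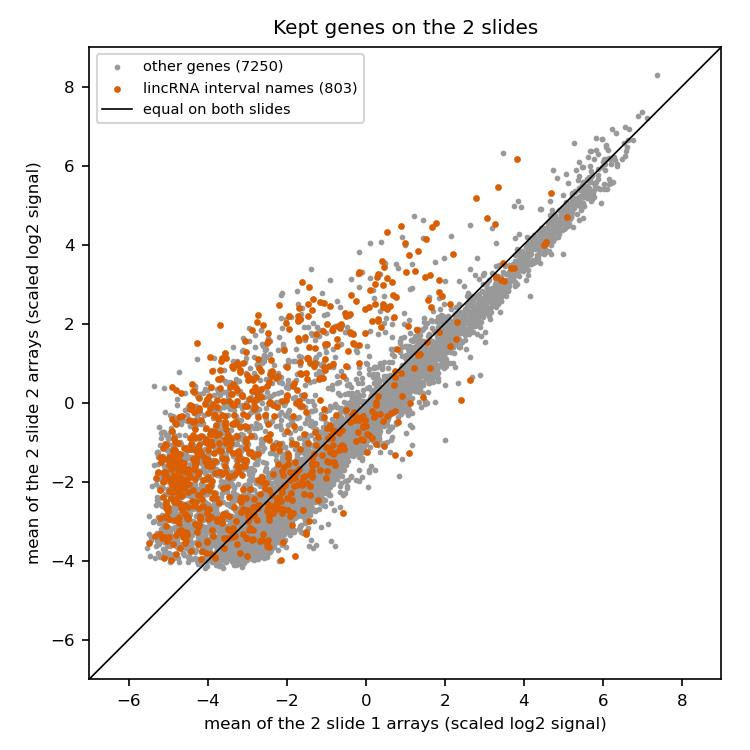
Mean scaled log2 signal of the 2 slide 1 arrays (x axis) and of the 2 slide 2 arrays (y axis) for each of the 8053 kept genes, with lincRNA interval names in orange and the line of equality in black. Most points lie just under the line, and a second set, rich in lincRNA intervals, lies well above it.

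The direction of the calls varied with the kind of gene. Of the 803 lincRNA intervals kept, 562 were higher on slide 2 (70.0%) and 83 lower (10.3%), with a median difference of 1.93, against 15.9% and 51.5% of the protein-coding genes, whose median was -0.40. Relative to the median of all genes the intervals lay 2.27 higher, and between 1.61 and 2.30 under the other scalings and background corrections and without probes of repeated runs. The G and C content of the probe moved with the same split. Among genes whose probe has under 40% G and C, 9.18% were higher and 62.5% lower on slide 2, and among those with at least 55%, 46.8% were higher and 19.8% lower. Detection also differed between slides. In all, 2926 of 26273 probes of RefSeq mRNAs were well above background on both slide 1 arrays and neither slide 2 array, against 492 the other way, whereas 519 and 613 of 16251 lincRNA interval probes were. Of 1551 probes of olfactory, vomeronasal and taste receptors, a group chosen after the values were seen, 1.87 and 1.68% were above background on slide 1 and 5.42 and 5.16% on slide 2. The part of probe composition in these differences was not tested.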

How the data were processed

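RNA of EVs was isolated with a column kit, converted to Cy3-labelled cRNA and hybridised, 1 sample per array, to mouse 8x60K oligonucleotide arrays with 62976 spots. The authors deposited scanner output of Agilent Feature Extraction (version 10.7.3.1 in the headers) that holds a background-corrected intensity for every spot. The log2 values in the authors' own processed table were used as an alternative, and their centring is not stated.

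Control spots and non-uniform spots (4 to 29 per array) were left out, no spot was saturated, and spots of a probe were averaged, which gave 55681 probes. Log2 intensities were scaled as described in the results. RefSeq accessions renamed 26513 probes and synonyms 716, and the others kept the names of the array design. Coordinates are those of the array annotation (mm9), and exon or UTR annotation was not used here. The number of arrays limits the precision.

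The slide difference was tested per gene in R 4.3.3 by an lmFit and eBayes model (limma 3.58.1), with Benjamini-Hochberg adjustment over 8053 genes. In simulated data for this comparison over 8053 genes, 100 genes were changed by 1 log2 unit and 100 by 2 units. Of these, 56% and 81% were called, with 4 false calls among 7853 unchanged genes. In the real data 68.7% of genes were called, so the Benjamini-Hochberg cutoff was looser there. The simulated rates therefore do not carry over to the slide calls. Named genes are, among genes with an ordinary symbol, the 30 brightest and the 10 with the largest and smallest SD. Those called with the 10 largest slide differences in each direction, again among ordinary symbols, were named too. So were the 3 brightest of each of 31 lists, and Actb, Gapdh, Cd63, Cd9 and Cd81. Some genes and 1 list that this rule names are not reported here. Other genes in the text were chosen after their values were seen. The group, the lists and the tests were chosen with earlier results of these data known. Alternatives covered the detection filter, probe choice, background correction, scaling, the deposited table, the moderation and each array in turn.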

Additional observations from a re-analysis of the deposited data

Results flagged for a closer look

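Of 171 sets of 4 values examined (named genes, array measures and signal shares of lists), 3 had an array that stood apart from the other 3 by Dixon's criterion. For 4 independent values of 1 normal distribution, chance marks about 1 set in 20. These arrays form 2 slide pairs, and some genes were named for their SD or slide difference. The count of 3 therefore cannot be set against that rate. St6galnac4, a sialyltransferase gene, gave 2.34 on replicate 2 and between -3.89 and -3.40 on the other arrays, and its second probe gave -4.96 ± 0.37. Cxcl12, a chemokine, gave -2.85 on replicate 3 and between -0.87 and -0.59 on the others, and its second probe gave -2.95 ± 0.22 with no array apart to that extent. Ascc2 gave -2.45 on replicate 4 and between -2.48 and -2.47 on the others, a gap within the smallest spreads measured.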

How the results depend on the processing

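The count of kept genes was 8053 and rose to 9248 with detection on at least 3 arrays and to 15433 with detection on at least 1. Leaving out each array in turn, with detection required on the remaining 3, gave 8166 to 8596 genes, 3659 to 5727 slide calls, a median SD of 0.34 to 0.38, and 46 to 48 of the 50 brightest genes. Without replicate 2 the slide calls fell from 5531 to 3659 (1871 higher, 1788 lower), and without replicate 1 to 3740 (1863 higher, 1877 lower); here the lone slide 1 array is assumed to vary as those of slide 2. Under the other alternatives the calls ran from 4530 of 8053 genes to 7610 of 15433, the latter with detection on at least 1 array. With a robust intensity trend 5621 were called. With detection on at least 1 array the split was 3826 higher and 3784 lower of 15433 genes. The median SD rose to 0.72 with the percentile over all probes and to 0.80 without scaling. Of the 50 brightest genes, 38 were shared when probes were averaged, 44 with normexp and with the deposited table, and 34 when probes with repeated runs were left out, an alternative chosen after seeing the data, which left 7729 genes and 5344 slide calls. Among the genes named for their slide difference, Faf1 ranged from -0.40 to 5.65 as each array was left out and turned to -0.27 without replicate 3 and to -0.40 without replicate 4, because its second probe was then the brighter. In 10 cases a named slide difference lost its call. Median rank percentiles of lists stayed within 1 SD of the arrays in 334 values and moved beyond it in 72. Signal over background limits the dimmest genes most. No paired analysis was possible because the only comparison is between slides within 1 group, where each replicate number occurs once.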

Other observations

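In 325 transcripts, 2 probes lay at least 500 bases apart and both were kept. The signal of the probe nearer the 3′ end minus that of the other had a median of 0.90 and 0.81 on replicates 1 and 2. On replicates 3 and 4 that median was 0.36 and 0.37. The probe nearer the 3′ end was the brighter in 65.5, 63.1, 55.1 and 58.2% of these transcripts on replicates 1 to 4. Over 101 kept probes printed as repeated spots, the median SD between spots of 1 array was 0.091, 0.098, 0.288 and 0.217 on replicates 1 to 4. The median SD of their averages was 0.34 between the 4 arrays and 0.064 within slides.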
